A study of Mus musculus with 69 samples.

Results

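The mRNA levels of 8 genes of sterol synthesis and its control were followed over the day in whole kidneys of lupus-prone NZB/W F1 mice. The genes were chosen by name, as regulators and enzymes of one pathway, with earlier results of these data known. All 8 were found among the 24523 gene symbols with counts. They are Srebf1 and Srebf2, which encode the transcription factors SREBP-1 and SREBP-2, Insig1, which encodes a protein that holds these factors back, and the enzyme genes Hmgcs1, Idi1, Fdft1, Sqle and Cyp51. All mice were of the NZB/W F1 strain and no group carried an added or deleted gene. Young mice were 12 weeks old and untreated. Nephritic mice were 30 to 45 weeks old, untreated, and taken 2 to 3 weeks after proteinuria passed 300 mg/dl. Remission mice were treated at 36 to 50 weeks of age with 1 dose of cyclophosphamide (50 mg/kg) and 6 doses each of CTLA4Ig (200 ug) and anti-CD40L (250 ug) over 2 weeks, and were harvested 8 weeks later with proteinuria of at most 30 mg/dl. Zeitgeber time 0 (ZT0) is lights on and ZT12 lights off. The 30 young mice numbered 7, 4, 4, 7, 4 and 4 at ZT0, ZT4, ZT8, ZT12, ZT16 and ZT20, and the 27 nephritic mice numbered 7, 4, 4, 6, 3 and 3. The remission mice numbered 4 at ZT0 and 4 at ZT12. Nephritic mice were older than young mice, so age and nephritis cannot be told apart in any comparison of these groups. Remission mice also differed in age from the other groups, and they alone were treated. Age, treatment and remission thus cannot be told apart in any comparison with remission mice.

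Cholesterol is built from acetyl-CoA through mevalonate, isoprenoids, squalene and lanosterol. When sterols are scarce in the endoplasmic reticulum, the escort protein SCAP carries SREBP-1 and SREBP-2 to the Golgi, where they are cut and released to the nucleus, and when sterols are plentiful INSIG proteins retain SCAP and its cargo. SREBP-2 mainly drives genes of cholesterol synthesis and uptake and SREBP-1 mainly genes of fatty acid synthesis, and the proximal tubule, the main epithelium of the kidney cortex, carries out both processes.

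The upstream sequences of the genes were searched for the letters that SREBP, its partner NF-Y and the clock factors are known to bind. In the RefSeq tables for GRCm38.p6, 6 of the 8 genes had an upstream sequence. Srebf1 had 3 windows and the others 1 each. The counts below are by gene and the shares by window. Letters of the sterol regulatory element (TCACCNCA, searched on both strands) stood in the 250 bases before the start of Srebf2, Hmgcs1 and Cyp51, against 3.61% of 32841 windows of the same length over all genes. The CCAAT box (CCAAT, both strands), which binds the partner factor NF-Y, stood in windows of all 6 genes, against 33.9% of all windows. Window 2 of the 3 of Srebf1 held none. The E-box letters CACGTG, which read the same on both strands and which the clock factors CLOCK and BMAL1 can bind, stood before Insig1 alone of the 6, against 6.02% of all windows. A match describes letters in the sequence and not a bound site. The windows of the 3 genes with sterol element letters and of Insig1, which of the 8 genes had the largest fall in nephritic mice, read as follows on the strand of each gene, (plus for Srebf2, Hmgcs1 and Insig1 and minus for Cyp51), 5′ to 3′ and ending at the base before the start, with the matched letters (or their reverse complements) in capitals.
Srebf2 chr15:82147019-82147268: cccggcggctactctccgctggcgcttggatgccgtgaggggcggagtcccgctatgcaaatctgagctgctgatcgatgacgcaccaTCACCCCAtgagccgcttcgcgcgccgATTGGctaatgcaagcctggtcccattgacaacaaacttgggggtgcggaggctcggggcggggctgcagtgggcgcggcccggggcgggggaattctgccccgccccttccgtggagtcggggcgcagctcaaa
Hmgcs1 chr13:119690101-119690350: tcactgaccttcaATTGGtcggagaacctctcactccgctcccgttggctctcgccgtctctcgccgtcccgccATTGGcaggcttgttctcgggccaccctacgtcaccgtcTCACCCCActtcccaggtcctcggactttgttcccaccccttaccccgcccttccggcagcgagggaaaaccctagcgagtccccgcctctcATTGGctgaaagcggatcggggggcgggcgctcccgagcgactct
Cyp51 chr5:4104698-4104947: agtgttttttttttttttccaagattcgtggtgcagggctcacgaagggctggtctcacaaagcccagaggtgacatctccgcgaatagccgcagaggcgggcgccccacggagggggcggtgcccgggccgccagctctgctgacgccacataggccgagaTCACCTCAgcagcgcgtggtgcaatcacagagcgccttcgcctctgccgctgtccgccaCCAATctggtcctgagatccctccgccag
Insig1 chr5:28071162-28071411: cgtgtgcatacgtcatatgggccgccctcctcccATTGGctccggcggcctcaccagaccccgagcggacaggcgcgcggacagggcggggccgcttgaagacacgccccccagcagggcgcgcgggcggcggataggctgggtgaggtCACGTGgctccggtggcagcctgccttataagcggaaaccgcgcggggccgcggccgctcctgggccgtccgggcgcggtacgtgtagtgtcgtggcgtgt

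The sterol element letters began 162 bases before the start in Srebf2, 137 bases before it in Hmgcs1 and 88 bases before it in Cyp51. The E-box letters of Insig1 began 101 bases before its start.

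Libraries held 25257530 to 35744843 counts in young mice, 26596500 to 48075977 in nephritic mice and 13311278 to 21849912 in remission mice. Levels are given below as CPM (counts scaled to a common library size, with TMM factors), which are not divided by gene length and so are compared between mice and not between genes. The 8 proximal tubule and 4 podocyte markers, which define kidney tissue, were all detected, and no marker of any list was at 0 in every mouse of a group. Summed proximal tubule markers ran from 10948 to 18522 CPM in young mice, from 1894 to 13835 CPM in nephritic mice and from 7150 to 12161 CPM in remission mice. In 5 nephritic mice, 3 at ZT0 and 2 at ZT12, this sum lay under 4466 CPM, which is 0.5 times the nephritic median. The adrenal cortex is a gland beside the kidney that makes steroids from cholesterol. Its markers were over 5 times the median of all mice in 8 young mice (1 at ZT0, 3 at ZT12, 3 at ZT16 and 1 at ZT20) and in 1 nephritic mouse at ZT0, with sums of 82.9 to 2547 CPM in the young mice. The remaining mice had adrenal sums of at most 16.8 CPM, and no mouse passed the same limit for adipocyte markers. Adipocyte sums still varied, from 66.9 to 971 CPM in young and from 88.2 to 773 CPM in nephritic mice. In young mice their medians were 168 CPM at ZT8, 500 CPM at ZT16 and 483 CPM at ZT20. In nephritic mice they were 135 CPM at ZT4 and 763 CPM at ZT16. Young and nephritic libraries came from 2 RNASeq sets: Set 1 held 6 young and 5 nephritic mice, all at ZT0 or ZT12. Remission libraries were treated as a separate run, which also held 4 repeat libraries of young and nephritic mice. The study's methods do not name such a run. The library labelled remission ZT12 replicate 4 held 27.01 CPM of the clock gene Arntl, against 3.19 to 4.89 CPM in the other remission ZT12 libraries and 23.05 to 28.76 CPM in the 4 remission ZT0 libraries. Its nearest library was remission ZT0 replicate 4, at 2.93 times sampling noise, where pairs within a remission group lay at 4.56 or more, and the summed proximal tubule markers of both were 7315 and 7150 CPM. This goes against its ZT12 label and leaves its count as a separate mouse in doubt. The remission results are given below with it and then without it. Nephritic ZT4 replicates 2 and 3 were the nearest pair of all, at 2.05 times sampling noise, nearer than any repeat library to its original (4.53 or more), so whether they are separate mice is in doubt as well. They were kept as 2 mice as labelled, and a distance above the noise does not show that they are separate. Some pairs of young mice at the same hour also lay nearer than 4.53, young ZT12 replicates 6 and 7 the nearest at 2.55. These were kept as separate mice too, and this measure cannot tell whether they are. One nephritic mouse at ZT8 (replicate 3) held 17.97 CPM of Arntl, against 2.10 to 3.70 CPM in the other 3.

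Nephritic kidneys held less mRNA of most sterol synthesis genes. In the fit over 6 time points with set as a covariate (30 young and 27 nephritic mice, edgeR's quasi-likelihood test), 7 of the 8 genes were lower and 1, Sqle, did not pass, where 33.9% of the 17521 genes tested were called lower, 28.1% higher and 62.1% in either direction. The median log2 change was -0.49 over the 8 genes and -0.03 over all genes. In whole kidney, fewer cells of a type and less RNA per cell cannot be told apart.

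**Figure D1:**
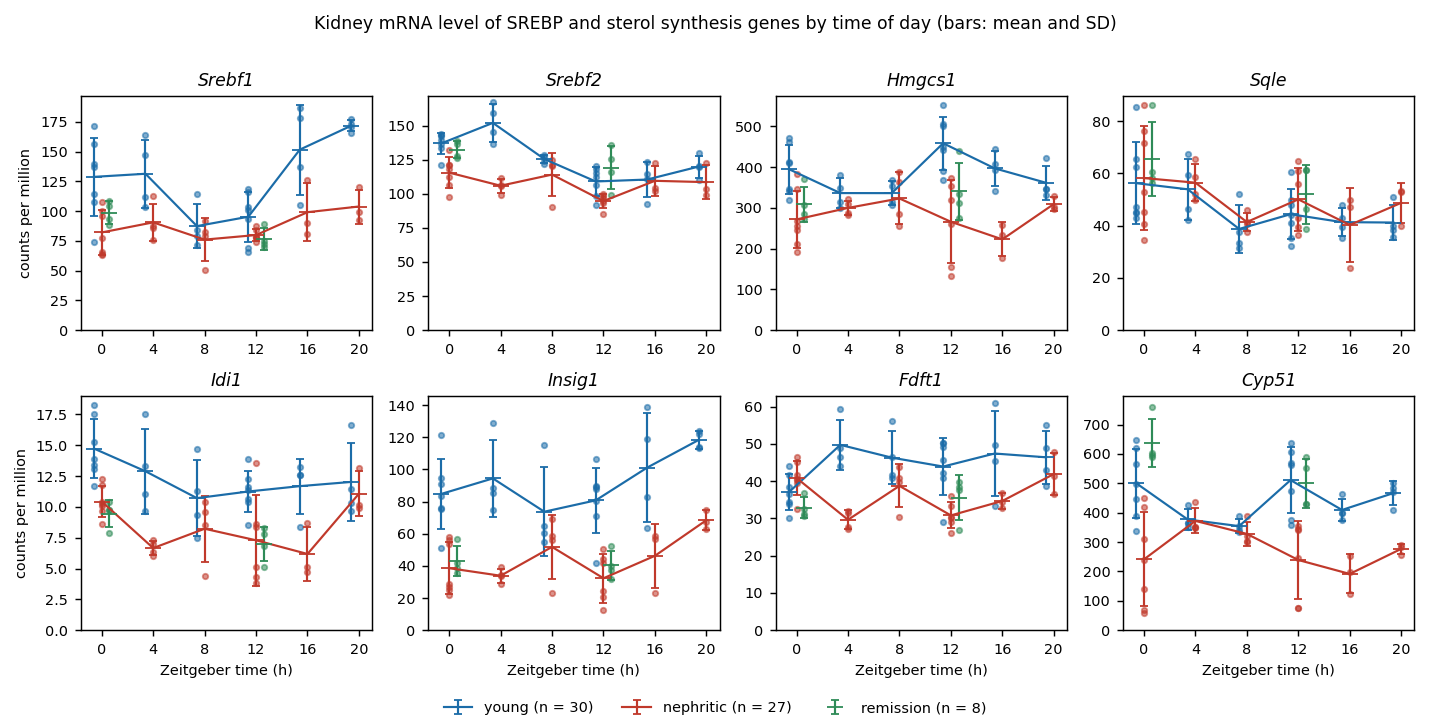
Level of each gene (CPM, linear axis from 0) against Zeitgeber time in hours, with each point 1 mouse, and crosses and bars the mean and SD of young (blue), nephritic (red) and remission (green) mice. The red means of Insig1 lie below the blue means at all 6 time points, while those of Sqle lie close to them.

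Among the regulators, Insig1 (chr5:28071412-28078662) fell the most. Its lowest, median and highest levels were 41.8, 88.1 and 139 CPM in the 30 young mice and 12.4, 41.7 and 75.1 CPM in the 27 nephritic mice. All 27 nephritic mice lay below the young median and 22 of the 30 young mice lay above the highest nephritic mouse, although the ranges overlapped. The fitted nephritic level was 0.457 of the young level (log2 change -1.13, SE 0.13, adjusted p = 1.37e-10).

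Srebf1 (chr11:60199084-60224186) had lowest, median and highest levels of 65.8, 115 and 186 CPM in young mice and 50.5, 83.9 and 126 CPM in nephritic mice. In this gene 13 young mice lay above every nephritic mouse and 3 nephritic mice lay below every young mouse. The log2 change was -0.50 (SE 0.08, adjusted p = 5.64e-07). Srebf2 (chr15:82147269-82205379) moved less, from 92.0, 123 and 167 CPM in young mice to 85.0, 106 and 132 CPM in nephritic mice (lowest, median and highest). The ranges of Srebf2 overlapped over most of their length, with 25 of 27 nephritic mice below the young median. Its log2 change was -0.23 (SE 0.04, adjusted p = 1.64e-06).

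Hmgcs1 and Idi1 act before squalene. Hmgcs1 (chr13:119690351-119708260), the cytosolic synthase that makes HMG-CoA, had lowest, median and highest levels of 299.6, 375 and 552 CPM in young mice and 132, 285 and 389 CPM in nephritic mice. Of the 27 nephritic mice 16 lay below every young mouse, and 14 young mice lay above every nephritic mouse. The log2 change was -0.49 (SE 0.08, adjusted p = 2.12e-06). Idi1 (chr13:8885606-8892396), which isomerizes isopentenyl diphosphate, had levels of 7.51, 12.0 and 18.2 CPM in young mice and 3.79, 8.61 and 13.6 CPM in nephritic mice. Of the nephritic mice, 10 had less Idi1 than any young mouse, and the log2 change was -0.60 (SE 0.10, adjusted p = 7.28e-07).

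Fdft1 and Sqle make and oxidize squalene, and they differed from each other. Fdft1 (chr14:63145150-63181687), squalene synthase, had lowest, median and highest levels of 29.0, 44.1 and 61.0 CPM in young mice and 26.0, 36.1 and 47.8 CPM in nephritic mice. Its ranges overlapped widely, with 3 nephritic mice below every young mouse, and its log2 change was -0.31 (SE 0.07, adjusted p = 0.000119). Sqle (chr15:59315092-59331193), squalene epoxidase, had 31.6, 44.4 and 85.6 CPM in young mice and 23.8, 49.7 and 86.2 CPM in nephritic mice. The highest mice of both groups lay side by side, and 10 of 27 nephritic mice were below the young median of Sqle. Its log2 difference was 0.10 (95% confidence interval -0.05 to 0.26, adjusted p = 0.254), an interval that holds changes in both directions.

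Cyp51 (chr5:4080674-4104697), the lanosterol demethylase, had lowest, median and highest levels of 334, 418 and 648 CPM in young mice and 58.5, 301 and 449 CPM in nephritic mice. The nephritic mice spread further than the young mice, and 17 of the 27 lay below every young mouse. The log2 change was -0.78 (SE 0.16, adjusted p = 3.6e-05).

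**Figure D2:**
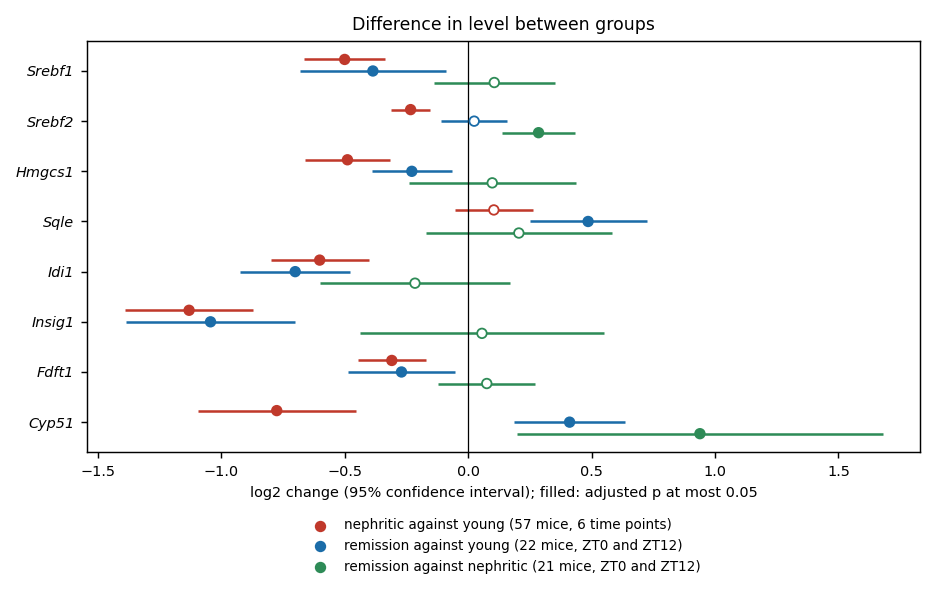
Fitted log2 difference in level (horizontal axis) with its 95% confidence interval for each gene: nephritic against young (red, 57 mice), remission against young (blue, 22 mice) and remission against nephritic (green, 21 mice). Filled points have an adjusted p of at most 0.05, and Insig1 is the gene farthest to the left in both comparisons with young mice.

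The falls of Cyp51 and Hmgcs1 were of unequal size in the RNASeq sets. In Set 1, Cyp51 ran from 566 to 648 CPM in 6 young mice and from 58.5 to 311 CPM in 5 nephritic mice, with no overlap. In Set 2 it ran from 334 to 561 CPM in 24 young mice and from 69.8 to 449 CPM in 22 nephritic mice. The log2 change of Cyp51 was -2.19 in Set 1 (SE 0.41, adjusted p = 0.00108) and -0.47 in Set 2 (SE 0.13, adjusted p = 0.00162), and that of Hmgcs1 was -1.29 and -0.29. Set 2 values cover all 6 time points, and Set 1 holds ZT0 and ZT12 alone. At ZT0 and ZT12, Cyp51 medians were 614 CPM (young) and 75.2 CPM (nephritic) in Set 1. In Set 2 at the same hours they were 416 and 341 CPM. For Hmgcs1 these medians were 486 and 211 CPM in Set 1 and 380 and 333 CPM in Set 2. Whether the sets differed was not tested. Of the nephritic mice with low proximal tubule markers, 3 were among the 5 of Set 1 and 2 among the 22 of Set 2. Insig1 fell by 1.64 on the log2 scale in Set 1 and by 1.00 in Set 2, and Idi1 fell by 0.82 and 0.54. Within Set 1 the log2 differences of Srebf1 (-0.44, adjusted p = 0.115), Srebf2 (-0.19, adjusted p = 0.0903) and Fdft1 (0.06, adjusted p = 0.736) did not pass, and within Set 2 the same 7 genes passed as over all mice.

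Proximal tubule markers moved with several of these genes. All 8 markers of the list were lower in nephritic mice, and all 6 tubular injury markers were higher. With the summed proximal tubule marker level as a further covariate, 5 of the 8 genes were still called lower: Insig1 (log2 change -0.68, SE 0.14, adjusted p = 9.98e-05), Idi1 (-0.41), Srebf1 (-0.40), Fdft1 (-0.39) and Srebf2 (-0.18). The difference of Hmgcs1 was then -0.08 (SE 0.07, adjusted p = 0.474) and that of Cyp51 0.04 (SE 0.11, adjusted p = 0.834). In the 5 nephritic mice with low tubule markers Cyp51 ran from 58.5 to 140 CPM, Hmgcs1 from 132 to 246 CPM and Insig1 from 12.4 to 27.1 CPM, while Sqle ran from 60.9 to 86.2 CPM. These are low values for the first 3 genes and high values for Sqle, whose nephritic median was 49.7 CPM. Without these 5 mice, the 7 genes passed again (52 mice). Cyp51 then differed by -0.47 (SE 0.09, adjusted p = 1.08e-05), Hmgcs1 by -0.32 (SE 0.06) and Insig1 by -0.96 (SE 0.12). Markers of infiltrating cells were also higher, with 6 of 6 macrophage, 5 of 5 B cell and plasma cell and 5 of 5 T cell markers higher in nephritic mice, and their part in the fall of the sterol genes was not tested. Of 9 adrenal cortex markers 5 were lower in nephritic mice. Without the mice high in these markers the same 7 sterol genes passed, with Insig1 at -1.03 (SE 0.15) and Fdft1 at -0.22 (SE 0.07).

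**Figure D3:**
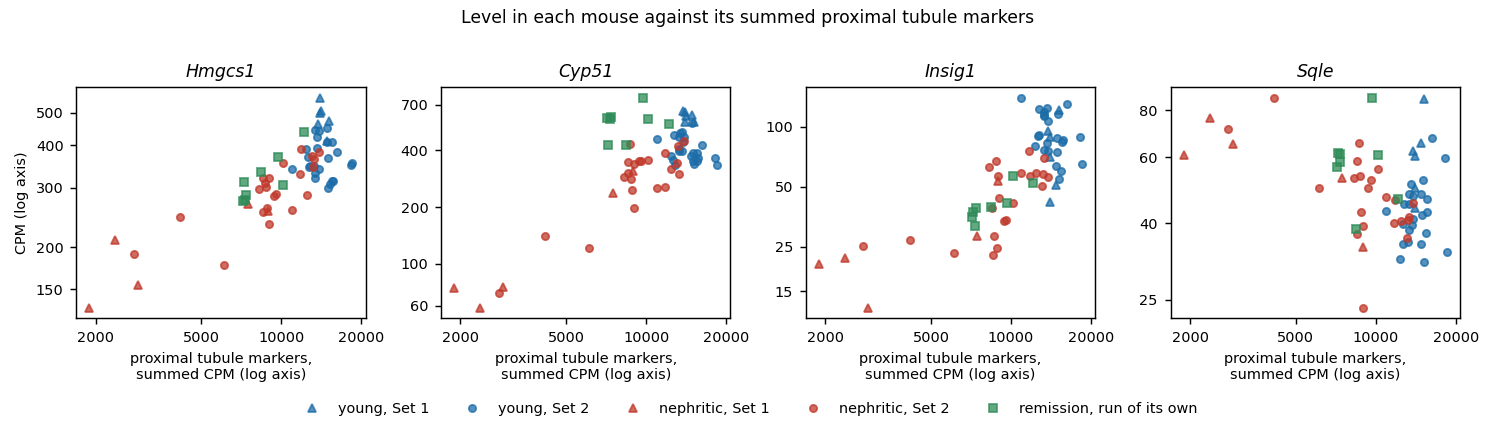
Level of Hmgcs1, Cyp51, Insig1 and Sqle (CPM, log axis) in each mouse against its summed proximal tubule markers (CPM, log axis), by group (colour) and set (symbol). The 5 nephritic mice under 4466 CPM of tubule markers lie at the left, at 58.5 to 140 CPM of Cyp51 and 60.9 to 86.2 CPM of Sqle.

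The other genes of the pathway were also mostly lower. They were listed by their known roles, with earlier results of these data known, and are given here by list. All 16 other enzymes of cholesterol synthesis that were measured were called lower in nephritic mice, where 33.9% of all genes were, with a median log2 change of -0.43 against -0.03 for all genes. Nsdhl, a sterol dehydrogenase, fell from 56.0 ± 8.98 CPM (SD, n = 30) to 38.9 ± 8.96 CPM (SD, n = 27), a log2 change of -0.56 (adjusted p = 4.02e-11). Acat2, which joins acetyl-CoA units at the head of the pathway, fell by 0.58 on the log2 scale (adjusted p = 7.23e-10), and Ebp, a sterol isomerase, also fell by 0.58 (adjusted p = 1.7e-09). Of 11 genes of SREBP processing and turnover, 8 were lower and 1 was higher, where 33.9% of all genes were lower and 28.1% higher. The escort gene Scap fell by 0.20 (SE 0.03) and Pgrmc1, which encodes a membrane heme-binding protein, by 0.41 on the log2 scale.

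Of 13 genes of sterol uptake, transport and esterification, 8 were lower and none was higher, against the same 33.9% and 28.1% over all genes. The lipoprotein receptor gene Vldlr fell from 119 ± 15.01 CPM (SD, n = 30) to 81.7 ± 15.6 CPM (SD, n = 27), a log2 change of -0.57 (adjusted p = 7.11e-12), and the sterol carrier gene Stard4 changed by -0.56. Of 17 genes of fatty acid synthesis, 15 were lower and none was higher (33.9% and 28.1% of all genes), with a median of -0.59 against -0.03 for all genes. Fads1 and Fads2, the fatty acid desaturases, changed by -0.58 and -0.84, and Me1, malic enzyme, by -0.59. The 8 genes of the sterol-sensing LXR receptors and their targets split, with 3 higher and 4 lower, where 62.1% of all genes were called in either direction. The cholesterol exporter gene Abcg1 rose from 19.4 ± 6.73 to 27.8 ± 11.03 CPM (SD, n = 30 and 27), a log2 change of 0.57, and the apolipoprotein gene Apoe rose by 0.89 (SE 0.18), while Lpcat3, a phospholipid acyltransferase, fell by 0.22.

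Time of day was visible in 4 of the 8 genes in young kidneys. Srebf1, Srebf2, Hmgcs1 and Sqle differed between the 6 time points (30 mice, F test on 5 degrees of freedom), where 39.8% of 16521 genes did. Srebf2 had the smallest p (adjusted p = 9.38e-05). It was highest at ZT4, with 136, 145, 159 and 167 CPM in the 4 mice, and lowest at ZT12, with a lowest, median and highest of 92.0, 112 and 121 CPM in 7 mice. Every mouse at ZT4 was above every mouse at ZT12. Its amplitude from a 24 h cosine was 0.23 (log2, SE 0.03).

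Srebf1 peaked late in the dark phase (adjusted p = 0.00415). The 4 young mice at ZT20 had 166, 171, 173 and 177 CPM, and those at ZT8 had 71.9, 79.2, 84.0 and 115 CPM. Every mouse at ZT20 was above every mouse at ZT8, and the amplitude of Srebf1 was 0.43 (SE 0.09), the largest of the 8 genes in young mice. Summed adipocyte markers were also lower at ZT8 (median 168 CPM) than at ZT20 (483 CPM), and their part in this course is not settled here. Hmgcs1 (adjusted p = 0.0181) was highest at lights off, with a lowest, median and highest of 369, 449.9 and 552 CPM in the 7 mice at ZT12. At ZT4 it was at 299.6, 314, 349 and 382 CPM, so that 1 mouse of ZT4 reached into the range of ZT12. Some ZT12 mice were of Set 1, where young Hmgcs1 ran from 413 to 552 CPM. All ZT4 mice were of Set 2, where it ran from 299.6 to 449.9 CPM over all hours. In Set 2 alone the highest and lowest fitted hours of Hmgcs1 were again ZT12 and ZT4. Sqle (adjusted p = 0.0425) had 42.1, 46.5, 59.5 and 67.4 CPM at ZT4 and 31.6, 33.5, 37.6 and 52.2 CPM at ZT8, which overlap. The call for Sqle was not kept without the mice high in adrenal markers (adjusted p = 0.0978), in Set 2 alone (0.119), and was kept in 13 of the 30 fits that each left out 1 mouse (adjusted p from 0.01 to 0.139).

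The remaining genes did not pass in young mice. Adjusted p values were 0.058 for Cyp51, 0.179 for Idi1, 0.268 for Insig1 and 0.323 for Fdft1. Insig1 nevertheless had 113, 114, 122 and 124 CPM in the 4 mice at ZT20, against 54.8, 60.2, 64.9 and 115 CPM at ZT8. One mouse at ZT8, at 115 CPM, thus lay among those of ZT20. Across the 14 groups of diagnosis and time, ordered by their means, 13 steps separate neighbours: in Srebf1, Hmgcs1, Sqle, Idi1, Insig1 and Fdft1 0 of these steps exceeded the larger SD of the pair, and in Srebf2 and Cyp51 3 did. In Srebf2 the top step lay between young ZT4 (152 ± 13.95 CPM, SD, n = 4) and young ZT0 (137 ± 7.92 CPM, SD, n = 7), and in Cyp51 between remission ZT0 (638 ± 81.9 CPM, SD, n = 4) and young ZT12 (511 ± 112 CPM, SD, n = 7).

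In nephritic mice only Fdft1 differed between time points (27 mice, adjusted p = 0.00212), where 21.6% of 16872 genes did. It was highest at ZT20, with 36.7, 41.2 and 47.8 CPM, and at ZT0, with a lowest, median and highest of 32.4, 40.6 and 46.4 CPM in 7 mice. It was lowest at ZT4, with 27.2, 27.7, 31.6 and 32.1 CPM, and at ZT12, with 26.0, 30.2 and 36.1 CPM in 6 mice. No mouse of ZT4 reached the lowest mouse of ZT0 or ZT20. Without the ZT8 mouse with high Arntl, Srebf2 (adjusted p = 0.0233) and Idi1 (adjusted p = 0.0353) also differed between time points. In young mice, where Fdft1 did not pass, it was at 44.0, 46.6, 48.9 and 59.5 CPM at ZT4 and at 30.0, 36.6 and 44.1 CPM at ZT0 (lowest, median and highest of 7).

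The group by time terms of the fit over both groups (57 mice) tested the difference in daily course itself. Of all genes 6.27% passed, and of the 8 genes Fdft1 did (adjusted p = 0.0161), while Srebf2 had an adjusted p of 0.0746 (0.0323 without the nephritic ZT8 mouse with high Arntl). Fdft1 rose and fell more than once over the day, and a single 24 h cosine did not pass in nephritic mice (adjusted p = 0.296) nor for the difference (adjusted p = 0.334). Without the 5 nephritic mice with low tubule markers, Hmgcs1 (adjusted p = 0.0261) and Cyp51 (adjusted p = 0.00449) also differed between time points in nephritic mice. In the same 52 mice the difference in daily course passed for Srebf2 (adjusted p = 0.0441), Hmgcs1 (0.0443), Fdft1 (0.0142) and Cyp51 (0.0207). All 5 mice left out were at ZT0 or ZT12, so those hours rest on fewer mice there.

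Amplitudes were not uniformly smaller in nephritic mice. The 24 h amplitude of Srebf1 was 0.43 in young and 0.17 in nephritic mice (log2, SE 0.09 in both), and that of Srebf2 0.23 (SE 0.03) and 0.10 (SE 0.04). Sqle had amplitudes of 0.19 and 0.17. For the other 5 genes the nephritic value was the larger, for example 0.18 and 0.34 in Idi1 (SE 0.07 and 0.12) and 0.15 and 0.38 in Cyp51 (SE 0.05 and 0.23). In Set 2 alone the nephritic value was the smaller for Srebf1, Srebf2, Hmgcs1 (0.15 in young and 0.14 in nephritic mice) and Insig1 (0.24 and 0.23) and the larger for the other 4, with Sqle at 0.16 and 0.28 and Idi1 at 0.16 and 0.20. These amplitudes are descriptions without a test. For Srebf1 the difference in daily course did not pass by the group by time terms (adjusted p = 0.463). It did not pass by a 24 h cosine either, for Srebf1 (adjusted p = 0.437) or Srebf2 (adjusted p = 0.257). An amplitude cannot be negative and is raised by spread between mice. The SE was larger in nephritic than in young mice for Cyp51, Insig1 (0.18 and 0.11) and Hmgcs1 (0.09 and 0.04). Of the 5 genes with a larger nephritic value, only Fdft1 passed the F test over time in nephritic mice. The larger values thus do not show a stronger rhythm.

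The gap between nephritic and young mice was next read hour by hour. Over 8 genes and 6 time points, 22 of 48 differences passed. The genes called lower numbered 6 at ZT0, 5 at ZT4, none at ZT8, 6 at ZT12, 4 at ZT16 and 1 at ZT20, where the share of all genes called lower was 19.4%, 16.4%, 0.833%, 24.2%, 7.66% and 0.919%. The share of all genes called in either direction was 39.5%, 30.3%, 3.66%, 50%, 17.7% and 5.48%, and none of the 8 genes was called higher. ZT0 and ZT12 hold 6 or 7 mice a group and the other hours 3 or 4, and whether the counts differ between hours was not tested.

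Insig1 passed at 4 time points, with log2 changes of -1.17 at ZT0, -1.52 at ZT4, -1.41 at ZT12 and -1.13 at ZT16. At ZT4 the nephritic mice had 28.4, 33.6, 34.1 and 39.2 CPM of Insig1 and the young mice 74.6, 85.3, 88.6 and 129 CPM. The groups were thus apart by a wide margin at this hour. At ZT8 they overlapped, with 22.9, 56.3, 58.7 and 69.3 CPM in nephritic and 54.8, 60.2, 64.9 and 115 CPM in young mice (log2 difference -0.51, adjusted p = 0.472).

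Fdft1 was called lower at some hours and had no detected difference at ZT0. Its log2 difference was 0.13 at ZT0 (adjusted p = 0.369), -0.79 at ZT4 (adjusted p = 0.000107) and -0.52 at ZT12 (adjusted p = 0.000327). With nephritic ZT4 replicates 2 and 3 averaged into 1 sample, Srebf1 at ZT4 and ZT20 and Fdft1 at ZT16 did not pass, and 19 of the 48 differences did. Srebf2 was lower at ZT0 (-0.26), ZT4 (-0.56) and ZT12 (-0.22), and Srebf1 at ZT0 (-0.66), ZT4 (-0.58) and ZT20 (-0.74, adjusted p = 0.0452). Cyp51 passed at ZT0 (-1.09) and ZT12 (-1.18), the time points that hold Set 1 mice and the 5 mice with low tubule markers, and differed by -0.06 at ZT4 (adjusted p = 0.923). At ZT4 Cyp51 was at 348, 352, 352 and 435 CPM in nephritic and 349.9, 365, 366 and 427 CPM in young mice, which overlap almost in full. Hmgcs1 and Idi1 passed at ZT0, ZT12 and ZT16, and Idi1 also at ZT4, where it fell by 1.00 on the log2 scale. Sqle passed at no time point.

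At ZT16, 3 of the 4 young mice were high in adrenal cortex markers. Without mice high in these markers, none of the 8 genes passed at ZT16, where 1 young mouse was left, and Fdft1 there differed by 0.08 in place of -0.45. At ZT20 Srebf1 was then at -0.70 (adjusted p = 0.0937), and at ZT12 the same 6 genes passed.

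**Figure D4:**
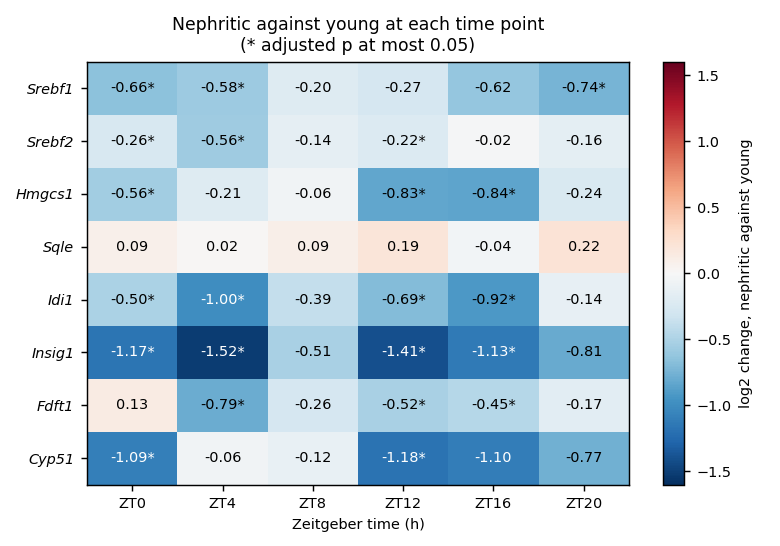
Fitted log2 difference of nephritic against young mice for each gene (rows) at each Zeitgeber time (columns), as colour and number, with a star where the adjusted p is at most 0.05. The ZT8 column holds no star, and the Sqle row holds none.

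Remission mice were harvested at ZT0 and ZT12 alone, so the contrast of these hours is the one that all groups share. In young mice 14.5% of genes passed (7.24% higher at ZT0 and 7.3% higher at ZT12), and Srebf2 was higher at ZT0 (log2 difference 0.32, SE 0.06, adjusted p = 0.000544) and Hmgcs1 higher at ZT12 (-0.22, SE 0.07, adjusted p = 0.0379). In nephritic mice 3.92% passed (1.54% higher at ZT0), and Srebf2 (0.29, SE 0.08, adjusted p = 0.042) and Fdft1 (0.39, SE 0.08, adjusted p = 0.0176) were higher at ZT0. Young mice had 121, 139 and 144 CPM of Srebf2 at ZT0 and 92.0, 112 and 121 CPM at ZT12 (lowest, median and highest of 7), and every mouse at ZT0 was above every mouse at ZT12. Neither nephritic call was kept in Set 2 alone, where the differences were 0.31 for Srebf2 (adjusted p = 0.126) and 0.40 for Fdft1 (adjusted p = 0.0701). Of the young calls in Set 2 alone, Srebf2 was kept (adjusted p = 0.00833) and Hmgcs1 was not (-0.23, adjusted p = 0.137). In Set 1 alone neither young call was kept (adjusted p = 0.0578 for Srebf2 and 0.0966 for Hmgcs1).

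In remission mice 0 of 14451 genes passed by edgeR, so none of the 8 genes did, while 1449 genes had an unadjusted p under 0.05. By limma 0 genes passed and by DESeq2 24 did. Srebf1, Idi1 and Cyp51 were among the genes with an unadjusted p under 0.05 by edgeR, with log2 differences of 0.37, 0.44 and 0.35 toward ZT0. Srebf1 was at 88.2, 93.1, 105 and 109 CPM at ZT0 and 69.8, 72.2, 74.7 and 89.5 CPM at ZT12, where 1 mouse of ZT12 reached above the lowest mouse of ZT0. The library labelled remission ZT12 replicate 4 held the 89.5 CPM that overlapped. Without it 202 of 14316 genes passed (1.41%) by edgeR, so the count over all genes rests on this library, and again none of the 8 genes passed. The difference was then 0.46 for Srebf1 (adjusted p = 0.0655), 0.50 for Idi1 (adjusted p = 0.22) and 0.45 for Cyp51 (adjusted p = 0.116).

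In the fit with set as a covariate, some sterol genes in remission lay below and others above their levels in young mice. Against 14 young mice of the same hours, 51.7% of 15982 genes passed (25.6% lower and 26% higher in remission), and 7 of the 8 sterol genes did, 5 lower and 2 higher. Lower in remission were Insig1 (log2 change -1.04, SE 0.17, adjusted p = 2.31e-05), Idi1 (-0.70), Srebf1 (-0.39), Fdft1 (-0.27) and Hmgcs1 (-0.23). Higher were Sqle (0.49, SE 0.11, adjusted p = 0.00123) and Cyp51 (0.41, SE 0.11, adjusted p = 0.00303), and Srebf2 differed by 0.02 (95% confidence interval -0.11 to 0.16). At these hours the median of Cyp51 was 614 CPM in Set 1 young, 416 CPM in Set 2 young and 591 CPM in remission mice. For Sqle these medians were 61.5, 43.9 and 59.4 CPM. Remission medians of both genes thus lay above those of Set 2 and below those of Set 1 young mice. Against 13 nephritic mice of the same hours, 31.1% of 16344 genes passed (14.6% higher in remission), and 2 of the 8 did: Srebf2 (0.29, SE 0.07, adjusted p = 0.00523) and Cyp51 (0.94, SE 0.35, adjusted p = 0.0498) were higher in remission.

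Insig1 was low in remission mice. It was at 35.3, 39.0, 41.6 and 56.6 CPM in remission mice at ZT0 and 31.7, 37.3, 39.6 and 52.4 CPM at ZT12. Of the 14 young mice 12 lay above every remission mouse, and 6 of 8 remission mice lay below every young mouse. Against nephritic mice Insig1 differed by 0.06 (95% confidence interval -0.44 to 0.55), a range that holds changes in both directions.

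Cyp51 took the opposite place. It was at 591, 598, 602 and 760 CPM in remission mice at ZT0 and at 428, 428, 551 and 591 CPM at ZT12. Of the 13 nephritic mice 12 lay below every remission mouse, and 6 remission mice lay above every nephritic mouse. Sqle was at 56.5, 58.1, 60.7 and 86.3 CPM in remission mice at ZT0 and at 38.7, 46.4, 61.3 and 61.4 CPM at ZT12, all but 1 of them above the young median of 46.2 CPM at these hours. This young median pools both sets, and that of Set 1 alone was 61.5 CPM. Srebf2 was at 127, 128, 136 and 139 CPM at ZT0 and 99.2, 116, 126 and 136 CPM at ZT12, of which 1 lay below the nephritic median of 99.8 CPM.

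The remission run and the remission group can be told apart only through 4 young or nephritic mice that were sequenced again in that run. With these bridging libraries in the fit, none of the 8 genes passed against nephritic mice and 3 passed against young mice, Insig1 (-0.98, adjusted p = 0.0186), Cyp51 (0.52, adjusted p = 0.0179) and Sqle (0.53, adjusted p = 0.0403). Idi1 differed by -0.11 there (adjusted p = 0.721), and the run effect fitted for Idi1 against young mice was -0.58 (SE 0.15, adjusted p = 0.0362). One repeat library, of a nephritic mouse, lay nearer another mouse than its own original. With the other 3 mice as the bridge, Insig1 (-1.01, adjusted p = 0.0417) and Cyp51 (0.52, adjusted p = 0.0454) passed against young mice. The calls of Sqle and Cyp51 against young mice also rest on set being a covariate, since without it the differences were 0.24 (adjusted p = 0.144) and 0.18 (adjusted p = 0.254). Without the library labelled remission ZT12 replicate 4, Srebf2 passed against nephritic mice (0.24, adjusted p = 0.0124) and Cyp51 did not (0.89, adjusted p = 0.0861). Against young mice Insig1 (-0.999, SE 0.17), Idi1 (-0.72), Srebf1 (-0.43), Hmgcs1 (-0.19), Sqle (0.45) and Cyp51 (0.39) then passed, and Fdft1 did not (-0.21, adjusted p = 0.077). Without the 5 nephritic mice with low tubule markers, Cyp51 was higher in remission by 0.62 (SE 0.11, adjusted p = 0.000611) and Sqle by 0.41 (SE 0.15, adjusted p = 0.0419).

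Of the 16 other cholesterol enzymes, 8 were lower and none was higher in remission than in young mice, with a median log2 change of -0.27, where 25.6% of all genes were lower. Against nephritic mice 2 were higher and 2 lower, a share of called genes under the 31.1% over all genes. Proximal tubule markers in remission were lower than in young mice for 6 of 8 genes and differed from nephritic mice for none, while 4 of 6 tubular injury markers were lower than in nephritic mice. Without the library labelled remission ZT12 replicate 4, 7 of the 16 enzymes were lower than in young mice, 2 were higher and 1 lower than in nephritic mice, and 1 of 6 injury markers was lower than in nephritic mice, while the proximal tubule counts were 6 and 0. All 9 adrenal cortex markers were lower in remission than in young mice, with and without that library, and the part of these markers in the differences was not tested.

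Time of day was also tested in the neighbouring lists. In young mice 8 of 16 other cholesterol enzymes, 2 of 11 SREBP processing genes, 8 of 13 uptake and transport genes, 15 of 17 fatty acid synthesis genes and 8 of 8 LXR genes differed between time points, against 39.8% of all genes. In nephritic mice these counts were 7, 3, 4, 5 and 3, against 21.6% of all genes. Nsdhl (adjusted p = 4.22e-05) and the mevalonate kinase gene Mvk (adjusted p = 0.00724) peaked at ZT4, the peak hour of Srebf2. Among fatty acid genes, Aacs, an acetoacetyl-CoA synthetase, averaged 268 CPM at ZT12 and 114 CPM at ZT4 (adjusted p = 8.42e-06), Scd2, a desaturase, 252 CPM at ZT20 and 127 CPM at ZT8 (adjusted p = 1.57e-05), and Acss2, which makes acetyl-CoA from acetate, peaked at ZT8 (adjusted p = 0.000207). Of uptake and transport genes, Lpin1, a lipid phosphatase, peaked at ZT12 (adjusted p = 2.1e-07), Osbpl8, an oxysterol-binding protein, at ZT20 (adjusted p = 1.71e-06) and Mylip, a ubiquitin ligase induced by LXR, at ZT12 (adjusted p = 0.000544). The LXR targets Abcg1 (adjusted p = 8.09e-06) and Abca1 (adjusted p = 0.000181) peaked at ZT20 and Lpcat3 (adjusted p = 9.18e-05) at ZT4. Erlin1 (adjusted p = 0.00926) and Ubxn4 (adjusted p = 0.014) of the SREBP turnover genes peaked at ZT8 and ZT20. All 9 adrenal cortex and 8 adipocyte markers also differed between time points in young mice, and their part in these courses was not tested.

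Mice that were high in one sterol gene tended to be high in others at the same hour. After the mean of each time point and set was removed, 23 of 56 pairwise correlations of log2 level passed (28 pairs in 30 young and in 27 nephritic mice, permutation within time point and set, Benjamini-Hochberg over the 56), 13 in young and 10 in nephritic mice and all of them positive. The median r was 0.46 in young and 0.42 in nephritic mice. The genes of a pair share libraries and scaling factors. Without TMM factors 18 pairs passed, and without mice high in adrenal markers 23 did.

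In young mice Insig1 and Srebf1 moved together (Pearson's r = 0.83, permutation p = 3e-05, adjusted p = 0.00168, Spearman's rho = 0.82, permutation p = 9e-05), with r = 0.83 without the 2 mice farthest from the median. Insig1 and Fdft1 did so too (r = 0.83, permutation p = 0.00017, adjusted p = 0.00317, rho = 0.78, permutation p = 0.00033), with r = 0.80 without 2 mice. Sqle had r of 0.65 with Idi1 (adjusted permutation p = 0.0116) and 0.62 with Hmgcs1 (adjusted permutation p = 0.0104) in young mice, and lower values with Cyp51 (0.45) and Fdft1 (0.14). Without mice high in adrenal markers Sqle and Idi1 did not pass (r = 0.58, adjusted permutation p = 0.107), while Sqle and Hmgcs1 did (r = 0.61, adjusted permutation p = 0.043).

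In nephritic mice Hmgcs1 and Cyp51 were the closest pair (r = 0.80, permutation p = 0.00053, adjusted p = 0.00661, rho = 0.78, permutation p = 0.00131), with r = 0.68 without the 2 farthest mice and r = 0.67 without the 5 mice with low tubule markers (adjusted permutation p = 0.0403). Srebf2 and Insig1 had r = 0.73 (permutation p = 0.00059, adjusted p = 0.00661, rho = 0.74, permutation p = 0.00013), and r = 0.82 without those 5 mice. Sqle stood apart from its pathway here, with r of -0.63 with Cyp51 and -0.59 with Insig1, neither past the threshold (adjusted permutation p = 0.0554 for Insig1). Without the 5 mice these were -0.14 and -0.36, so the size of these values rests on those mice. Whether r differed between young and nephritic mice was not tested.

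**Figure D5:**
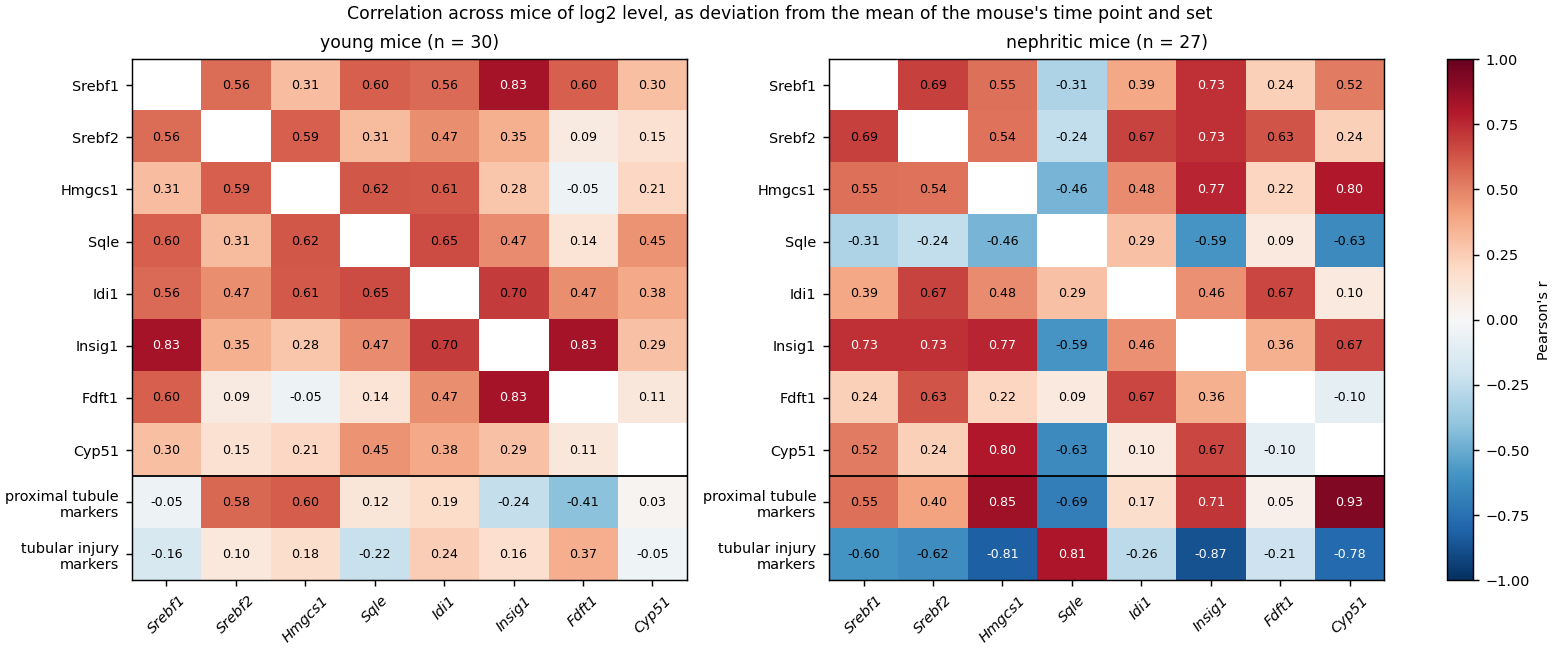
Pearson's r between pairs of genes, and between each gene and summed proximal tubule or tubular injury markers (lower rows), across 30 young (left) and 27 nephritic mice (right), as colour from -1 to 1 and number, on log2 levels after the mean of each time point and set was removed. In young mice Sqle has an r of 0.14 to 0.65 with the other genes, and in nephritic mice its cells run from -0.63 to 0.29.

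Against the marker sums (64 relations), nephritic Insig1 followed tubular injury markers inversely (r = -0.87, rho = -0.88, permutation p = 1e-05 for both, the smallest that 100000 draws can give, adjusted p = 0.00064). Without the 5 mice with low tubule markers r was -0.83 (adjusted permutation p = 0.0145). Cyp51 followed proximal tubule markers (r = 0.93, permutation p = 0.00144, adjusted p = 0.023, rho = 0.72, permutation p = 0.0082), but without the 5 mice r was 0.56 (adjusted permutation p = 0.291), so this relation rests largely on them. Hmgcs1 had r = 0.85 with proximal tubule markers over 27 mice (adjusted permutation p = 0.00224) and 0.73 over 22 mice (adjusted permutation p = 0.0443). Sqle followed injury markers upward (r = 0.81, permutation p = 0.0031, adjusted p = 0.0283, rho = 0.75, permutation p = 0.00286), with r = 0.62 without the 5 mice (adjusted permutation p = 0.251). In young mice Srebf2 (r = 0.58, adjusted permutation p = 0.0283) and Hmgcs1 (r = 0.60, adjusted permutation p = 0.0297) passed with proximal tubule markers, and Cyp51 had r = 0.03.

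Among 14175 genes with a mean of at least 1 CPM, genes most like the mean course of the 8 across the 57 mice were, outside the 8, Lss (r = 0.87), Fads1 (0.82), 2900026A02Rik (0.78), Abcb10 (0.77), Nsdhl (0.75) and Pik3cb (0.72), as a description with no test. Lss encodes lanosterol synthase, and Lss, Fads1 and Nsdhl stood in the pathway lists above. Of the 8 sterol genes themselves, Insig1 (r = 0.85), Idi1 and Srebf1 (both 0.82) lay closest to the common course and Sqle farthest (r = 0.20 over all mice, 0.71 in young and -0.14 in nephritic mice).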

How the data were processed

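Total RNA from whole perfused kidneys was taken through poly-A selection and sequenced on an Illumina instrument with reads of 150 bases. Per the labels and the study's methods, the authors aligned reads to mm10 (GRCm38; the methods name Burrows-Wheeler alignment and the submitters' processing notes list HISAT, with no version given) and counted uniquely aligned reads on exons and splice junctions with at most 2 mismatches. The deposited values are raw counts per gene symbol, 1 table per library, with no normalization. Counting by strand is not given in the sources used here. C57BL/6 and microarray samples were not used here.

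Of 24538 symbols listed, 15 had empty cells and 24523 were analysed. The 65 original libraries were each counted as 1 mouse, as labelled (the report names pairs where this is in doubt), and 4 repeat libraries served as a bridge between runs. Counts were fitted in R 4.3.3 with edgeR 4.0.16 (TMM factors, quasi-likelihood test, a minimum of 100 counts summed across the mice entered, RNASeq set as covariate where it applies, prior count 2), with Benjamini-Hochberg adjustment over all genes tested and a threshold of 0.05. Sets follow the prefixes of the sample titles. Time was tested as 6 levels (F test), and the difference in daily course as the group by time terms. The scripts were tested on simulated data. Intervals are 95% confidence intervals of the fitted log2 differences, based on the spread between mice.

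The members and all gene lists were chosen with earlier results of these data known. In each list the text names the 3 genes with the smallest p in each of the level comparison and the young time test, among those past the threshold, and the 8 genes most like the members' common course; some genes this rule names are not reported here. Correlations used log2 CPM (counts per library, scaled with TMM factors) after removal of the mean of each time point and set, with 100000 permutations within these strata. DESeq2 1.42.0, limma 3.58.1, other size factors, no filter, each set alone, marker covariates, a 24 h cosine, repeat libraries and leaving out each mouse were tried as alternatives. Replicates are separate mice as labelled, apart from the pairs in doubt, so p-values of the fits set differences against the spread between mice.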

Additional observations from a re-analysis of the deposited data

Results flagged for a closer look

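The group by time terms of Fdft1 passed (adjusted p = 0.0161, edgeR's quasi-likelihood test), so that its daily course differed between nephritic and young mice.

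In 7 of 96 groups of 4 to 10 mice, 1 mouse lay far from the others by Dixon's ratio, the gap to its nearest neighbour over the range of the group, where chance gives about 1 in 20 groups. The highest ratio was that of Cyp51 in nephritic mice at ZT4 (0.941), where 1 mouse had 435 CPM and the next 352 CPM. Cyp51 in remission mice at ZT0 had a ratio of 0.922, with 1 mouse at 760 CPM and the next at 602 CPM. The same mouse was also apart for Sqle (ratio 0.829), at 86.3 CPM against 60.7 CPM in the next mouse. Srebf2 in nephritic mice at ZT8 (ratio 0.893) had 1 mouse at 90.7 CPM and the next at 120 CPM, and this was the nephritic ZT8 mouse with high Arntl. Idi1 in young mice at ZT16 (ratio 0.885) had 1 mouse at 8.36 CPM and the next at 12.6 CPM. Fdft1 in remission mice at ZT12 (ratio 0.861) had 1 library at 26.8 CPM and the next at 37.6 CPM, and this was the library whose Arntl level stood apart. Fdft1 in young mice at ZT12 (ratio 0.619, 7 mice) had 1 mouse at 29.0 CPM and the next at 40.8 CPM.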

How the results depend on the processing

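Of 1136 values recomputed under alternatives for single genes, 1056 kept their side of the threshold, 61 lost it, 16 gained it and 3 turned sign with a call in either fit. The 3 were Cyp51 in level with the proximal tubule covariate (0.0404), Fdft1 in level in Set 1 alone (0.0581) and Fdft1 at ZT16 without mice high in adrenal markers (0.0759). Another 28 turned sign with a call in neither fit, Sqle in level among them (-0.11 with the tubule covariate and -0.07 in Set 1 alone). Of 4968 values with 1 mouse left out, 4782 kept their side of the threshold, 164 lost and 22 gained it, 0 called values turned sign and 60 uncalled values did. The causes of these changes were not tested.

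Counts of the 8 genes called moved by over 1.5 times as follows. Nephritic against young, 7 in level, became 4 in Set 1 alone. Remission against nephritic, 2, became 1 with no filter, 1 with RLE factors, 1 without the library labelled remission ZT12 replicate 4, and 0 when bridged by 4 or by 3 repeats. Remission against young, 7, became 3 and 2 with these bridges. The difference in daily course, 1, became 0 with the cosine, 2 with DESeq2 and 4 without mice low in tubule markers. Time in nephritic mice, 1, became 0 with the cosine, 3 with DESeq2, 2 with limma, 2 with repeat libraries and 3 without mice low in tubule markers. ZT0 against ZT12 became 1 without the set covariate, 1 with repeat libraries and 0 in either set alone in nephritic mice (2 with all mice and the set covariate), and 1 without the set covariate, 0 in Set 1 and 1 in Set 2 in young mice (2).

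With each mouse left out, counts ran from 7 to 7 in level, 16 to 23 over the 48 differences at single hours, 3 to 5 for time in young and 1 to 3 in nephritic mice, 1 to 2 for the difference in daily course, 1 to 2 and 5 to 7 for remission against nephritic and young mice, and for ZT0 against ZT12 1 to 2 in young, 0 to 2 in nephritic and 0 to 0 in remission mice. Without the nephritic ZT8 mouse with high Arntl the count for time was 3 and that for the difference in daily course 2, and without 1 nephritic mouse at ZT12 the count for ZT0 against ZT12 was 0. Set 1 alone, the bridge by 3 repeats and leaving out mice low in tubule markers were chosen after seeing the data. No paired analysis was possible because the groups hold different mice and replicate numbers follow accession order.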
